A study of Mus musculus with 12 samples.

Results

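H3K9me3, the trimethyl mark on lysine 9 of histone H3, was compared between neonatal and adult liver of Alb-D2KO mice. In these animals the floxed Dio2 gene, which encodes the type 2 deiodinase, is inactivated by a Cre recombinase under the albumin promoter, so that the deletion is directed at hepatocytes while the other liver cells keep the gene. The mice were of strain C57BL/6 in the labels and C57BL/6J in the methods, and the neonatal lists came from livers at postnatal day 1 (P1) and postnatal day 5 (P5). Each neonatal sample was a pool of 3 livers, and the adult list names 1 animal. The members were the autosomal peaks of the 3 Alb-D2KO lists called over input, which held 235187 peaks at P1 and 241387 at P5 against 270434 in the adult, or 747008 of the 1667636 peaks in the 6 lists over input of the series. Lists of the same ages from control mice, which carry Cre, were set beside them. The adult age in weeks and the sex of the animals are not given in the labels. There was 1 list per genotype and age, so values are given without replicate error and no difference was tested. The methods describe further P1 pools and adult livers and repeated sequencing, and do not state how they were combined.

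H3K9me3 is written by methyltransferases such as SUV39H and SETDB1 and is bound by HP1 proteins, which keep chromatin compact. It is known from repeats, from clusters of olfactory and vomeronasal receptor genes, and from the zinc finger gene clusters themselves. Liver changes greatly after birth: blood formation leaves the organ, and hepatocytes turn on the enzymes and transporters of the adult. In whole liver a gain or loss of the mark in each cell and a change in the share of cells that carry it cannot be told apart.

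Short stretches of the reference are shown from the windows with the widest differences in the neonatal direction among those that kept their side after scaling and in the strongest 50 Mb, as explained with the windows. Each is 300 bases at the middle of the widest P1 peak in a 100-kb window described further on, given 5′ to 3′ on the plus strand of GRCm38 (mm10), as in the RefSeq copy of that build, with CpG dinucleotides in capitals. Both lay entirely inside peaks at P1 and P5 and outside every peak in the adult. The stretches, under peaks annotated as intergenic, lie at chr15:14689155-14689454, with 2 CpG, and at chr16:82131657-82131956, with 0 CpG.
Chromosome 15 stretch: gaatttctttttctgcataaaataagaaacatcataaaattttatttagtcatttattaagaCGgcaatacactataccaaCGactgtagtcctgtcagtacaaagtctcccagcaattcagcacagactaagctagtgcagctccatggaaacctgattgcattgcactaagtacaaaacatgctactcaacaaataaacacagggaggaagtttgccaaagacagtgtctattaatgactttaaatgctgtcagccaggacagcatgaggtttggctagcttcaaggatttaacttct
Chromosome 16 stretch: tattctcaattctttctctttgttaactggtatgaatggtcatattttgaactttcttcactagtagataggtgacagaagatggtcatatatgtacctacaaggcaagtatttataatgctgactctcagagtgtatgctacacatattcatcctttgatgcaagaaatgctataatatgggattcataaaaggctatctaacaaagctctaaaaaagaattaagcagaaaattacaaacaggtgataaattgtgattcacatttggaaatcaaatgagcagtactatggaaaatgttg
GC content was 37.7% in the chromosome 15 stretch and 32% in the chromosome 16 stretch.

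Neonatal peaks were fewer and wider than adult peaks. They covered 471.7 Mb at P1 and 497.7 Mb at P5, and adult peaks covered 382.3 Mb, which were 19.2%, 20.2% and 15.5% of the autosomes. The median width was 1016 bp at P1 and 1055 bp at P5 against 807 bp in the adult. Peaks of at least 5 kb were 8.47% of the P1 list (95% Wilson interval 8.36 to 8.58), 9.09% of the P5 list (8.98 to 9.21) and 3.93% of the adult list (3.86 to 4.01). These intervals cover counting error only, and the depth of the libraries is unknown because the lists hold no read counts. Islands of at least 20 kb numbered 995 at P1 and 999 at P5 against 540 in the adult. The neonatal excess therefore sat in the wide classes. Peaks from 5 to 20 kb summed to 156.8 Mb, 172.7 Mb and 82.2 Mb at P1, P5 and in the adult. Peaks under 500 bp went the other way, with 18.2 Mb, 18.3 Mb and 24.96 Mb.

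**Figure D1:**
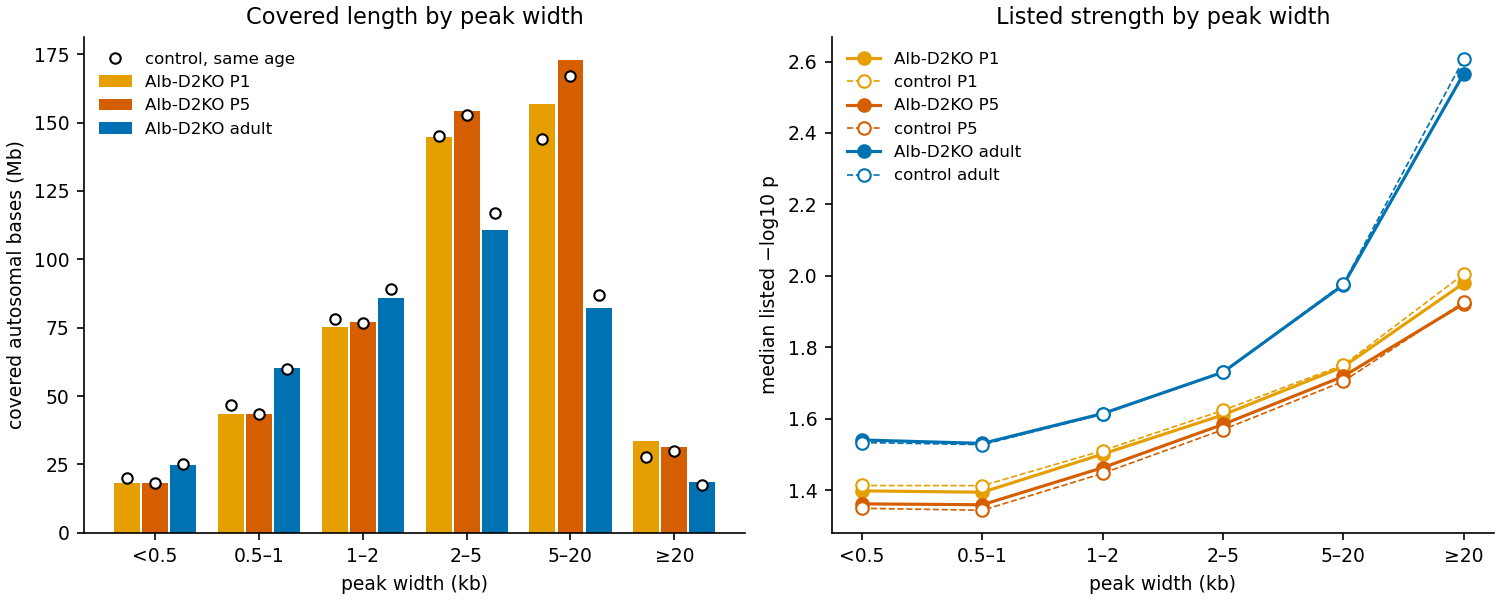
Covered autosomal length in Mb by peak width in kb (left; bars for the Alb-D2KO lists, circles for the control list of the same age) and median −log10 p of the peaks in each width class (right; filled points Alb-D2KO, open points control). Neonatal bars exceed the adult bar from 2 kb upwards, with 156.8 Mb at P1 and 172.7 Mb at P5 against 82.2 Mb at 5 to 20 kb, and the adult line is the highest in every class.

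The direction turned with the strength of the peaks. The lists give each peak a −log10 p-value over input, and its median was 1.504 at P1 and 1.47 at P5 against 1.60 in the adult. When only peaks with −log10 p above 2 were kept, the lists covered 57.3 Mb at P1 and 50.6 Mb at P5 against 96.8 Mb in the adult, so that the adult list was the largest. Of the islands of at least 20 kb, 46.2% passed that limit at P1 and 38.5% at P5, against 95.6% in the adult. The adult list thus had fewer wide islands, and nearly all of them were strong.

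Bases shared between the lists showed how far the neonatal ages matched each other. P1 and P5 had 305.3 Mb in common, 64.7% of the P1 bases and 61.4% of the P5 bases. Of that shared length, 48.9% was also inside adult peaks. Bases covered in the adult alone came to 117.6 Mb, or 30.8% of the adult list. The same shares in the control lists were 50.3% and 31.8%.

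Peaks were wider in neonatal liver in every class of gene section, by median width, with all listed peaks. The change was greatest at transcription start sites (TSS), where the median width was 2068 bp at P1 and 2038 bp at P5 against 1255 bp in the adult, and where 27.6%, 27.1% and 15.6% of peaks reached 5 kb. Intergenic peaks, which were 65.2%, 64.6% and 66.7% of the lists by number, had medians of 1093 bp, 1139 bp and 825 bp. Introns moved less, with 816 bp, 844 bp and 717 bp. The longest intronic islands ran the other way, since 16 intronic peaks reached 20 kb at P1 and 20 at P5, against 34 in the adult (0.0311%, 0.0376% and 0.0601% of intronic peaks, with overlapping Wilson intervals for P5 and the adult, 0.0243 to 0.0580 and 0.0430 to 0.0839). Intergenic islands of that size numbered 390, 439 and 128. Peaks in 3′ UTR exons differed least, with medians of 733 bp, 785 bp and 709 bp.

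Covered bases were then summed in windows of 100 kb, of which 21651 of 24620 full windows were covered in at least 1 Alb-D2KO list. A window was counted where both neonatal lists lay on the same side of the adult list by at least 10 kb and by more than they differed from each other. Neonatal coverage was higher in 4724 windows, 21.8% of those tested, and adult coverage was higher in 1693, or 7.82%. Within the neonatal pair, P1 and P5 differed by at least 10 kb in 1300 windows. The balance depended on list size: with every list scaled to the adult total, 3178 windows (14.7%) were higher in the neonate and 2822 (13%) in the adult. With the strongest 50 Mb of each list, the counts were 219 (1.66% of 13198) and 593 (4.49%). With peaks of −log10 p above 2, they were 139 (0.924% of 15046) and 1498 (9.96%). Of the 139 windows, 124 were also among the 4724 counted with all peaks. Of the 1498 windows with more strong adult coverage, 155 were counted as higher in the neonate when all peaks were used.

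On the same side in all 3 settings were 2010 windows for the neonate, 9.28% of those tested, and 1057 for the adult, 4.88%. The settings were all peaks, where the 10-kb rule applied, and the scaled lists and strongest 50 Mb, where any margin was enough.

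Windows near the limit show what the rule kept. At chr4:19100001-19200000, just inside, 71.8 kb was covered at P1 and 79.7 kb at P5 against 61.8 kb in the adult, and at chr4:77500001-77600000, just outside, 26.3 kb, 34.7 kb and 16.3 kb. In the adult direction, chr13:100200001-100300000 was inside with 7.18 kb, 6.51 kb and 17.2 kb. The nearest window outside was chr9:89500001-89600000, with 5.97 kb, 7.09 kb and 17.1 kb.

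**Figure D2:**
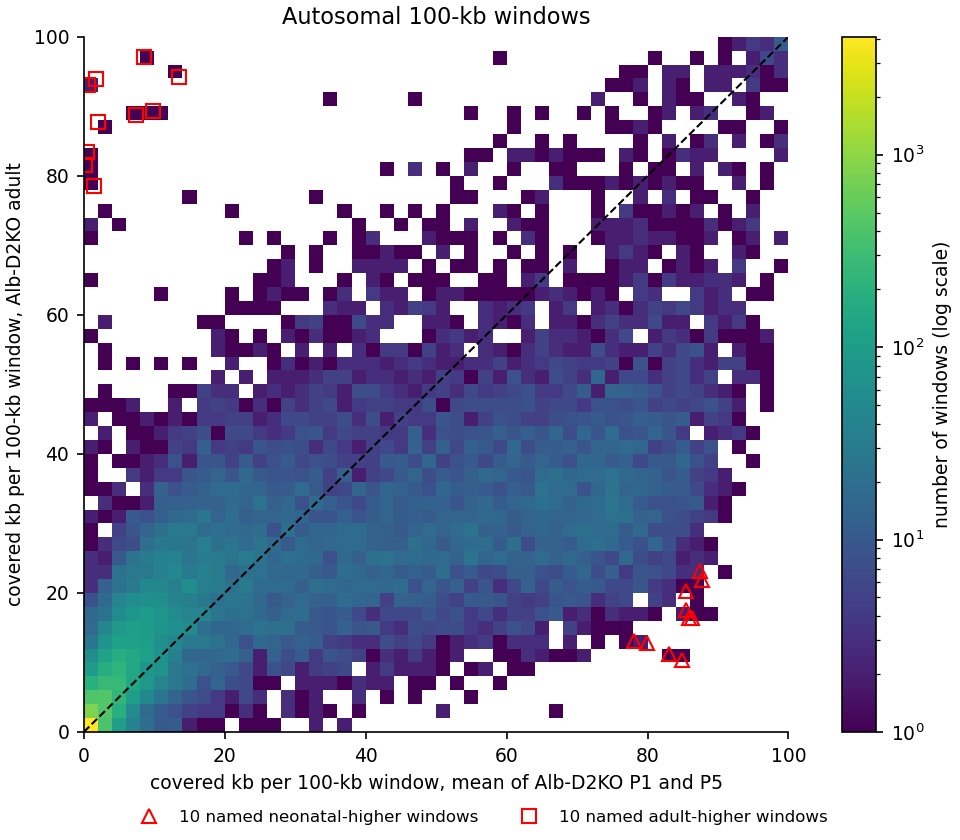
Covered kb per 100-kb autosomal window in Alb-D2KO liver, with the mean of P1 and P5 on the x axis, the adult on the y axis, colour for the number of windows on a log scale, a dashed line of equality, and red marks for the 20 named windows. The 4724 windows higher in the neonate had medians of 65.0 kb at P1 and 30.1 kb in the adult, and the 1693 windows higher in the adult had medians of 10.04 kb and 30.2 kb.

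The directions had different shapes along the chromosomes. Windows higher in the neonate lay next to each other, and 83.1% of them stood in runs of at least 5, with a longest run of 98 windows. Windows higher in the adult were scattered: 8.56% stood in runs of at least 5, and the longest run was 11 windows. The share of windows higher in the neonate ranged from 9.21% of those tested on chromosome 13 to 28.1% on chromosome 14, and the share higher in the adult from 3.39% on chromosome 19 to 12.5% on chromosome 13. Chromosome 13 was the autosome with the lowest ratio of neonatal to adult covered length, 0.911, and chromosome 16 had the highest, 1.52.

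They also differed in base composition and gene content. Windows higher in the neonate had a median GC content of 37.4% against 40.9% over all tested windows, and 4.94 CpG per kb against 7.29. Soft-masked repeats filled 42.9% of them, against 32.7% over all. No coding gene started in 85.1% of them, against 62.0% over all. Windows higher in the adult were close to the tested windows in GC (41.1%) and in CpG (7.41 per kb), but held more soft-masked repeats, 37.4%. The adult windows with the widest gaps were a group of their own. Of the 38 with a gap of at least 40 kb, a limit chosen after the values were seen, the median GC was 44.7%, CpG 13.7 per kb and soft-masked repeats 21.8%, and 28 lay mostly inside a coding gene of at least 300 kb. The 1027 windows with as wide a gap in the neonatal direction had a median GC of 36.5%, and 10.4% of them lay mostly inside such a gene. Stretches of 100 bases that occur more than once in the genome, where reads have no single position, made up a median of 3% of the tested windows, 6% of those higher in the neonate and 7% of those higher in the adult. Their part in the counts was not tested.

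The named windows higher in the neonate were taken as the 10 with the widest gaps that kept their side after scaling and in the strongest 50 Mb. At chr15:14600001-14700000, 84.2 kb was covered at P1 and 81.8 kb at P5 against 11.2 kb in the adult, and the control lists gave 79.9 kb, 75.3 kb and 22.6 kb. Neonatal values exceeded adult values severalfold in both genotypes there. At chr16:82100001-82200000 the Alb-D2KO lists gave 86.3 kb, 86.4 kb and 16.3 kb. At chr19:13400001-13500000, which holds the olfactory receptor genes Olfr1469, Olfr1471, Olfr1472, Olfr1474 and Olfr1475, they gave 90.1 kb, 79.7 kb and 10.4 kb. This was the only one of the 10 with a coding gene. Over the 10 windows the neonatal values ran from 77.5 kb to 90.1 kb and the adult values from 10.4 kb to 23.1 kb. Most of this length was weak, since peaks with −log10 p above 2 covered between 1.25 kb and 43.3 kb of a neonatal list. In the strongest 50 Mb the gaps of these windows ran from 1.07 kb to 9.14 kb, below the limit of 10 kb.

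The named windows higher in the adult had at most 17.1 kb in a neonatal list. All 10 lay wholly inside coding genes. At chr8:114800001-114900000, in Wwox, 0 kb was covered at P1 and 1.16 kb at P5 against 93.0 kb in the adult, and the control lists gave 0.544 kb, 0.441 kb and 97.1 kb. At chr13:113900001-114000000, in Arl15, the Alb-D2KO values were 0.894 kb, 2.47 kb and 93.96 kb. At chr17:85200001-85300000, in Camkmt, they were 4.37 kb, 12.8 kb and 97.1 kb. Each of these windows was nearly filled in the adult only. The other genes with named windows were Tiam1, Tcf4, Tenm3 and Smyd3. Over the 10 windows the adult values ran from 78.5 kb to 97.1 kb and the neonatal values from 0 kb to 17.1 kb. Adult peaks with −log10 p above 2 covered between 24.6 kb and 94.1 kb, with the lowest value in Smyd3. All 20 named windows were also counted on the same side in the control lists. Smyd3 differed in size, with 78.5 kb in the Alb-D2KO adult and 38.3 kb in the control adult.

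**Figure D3:**
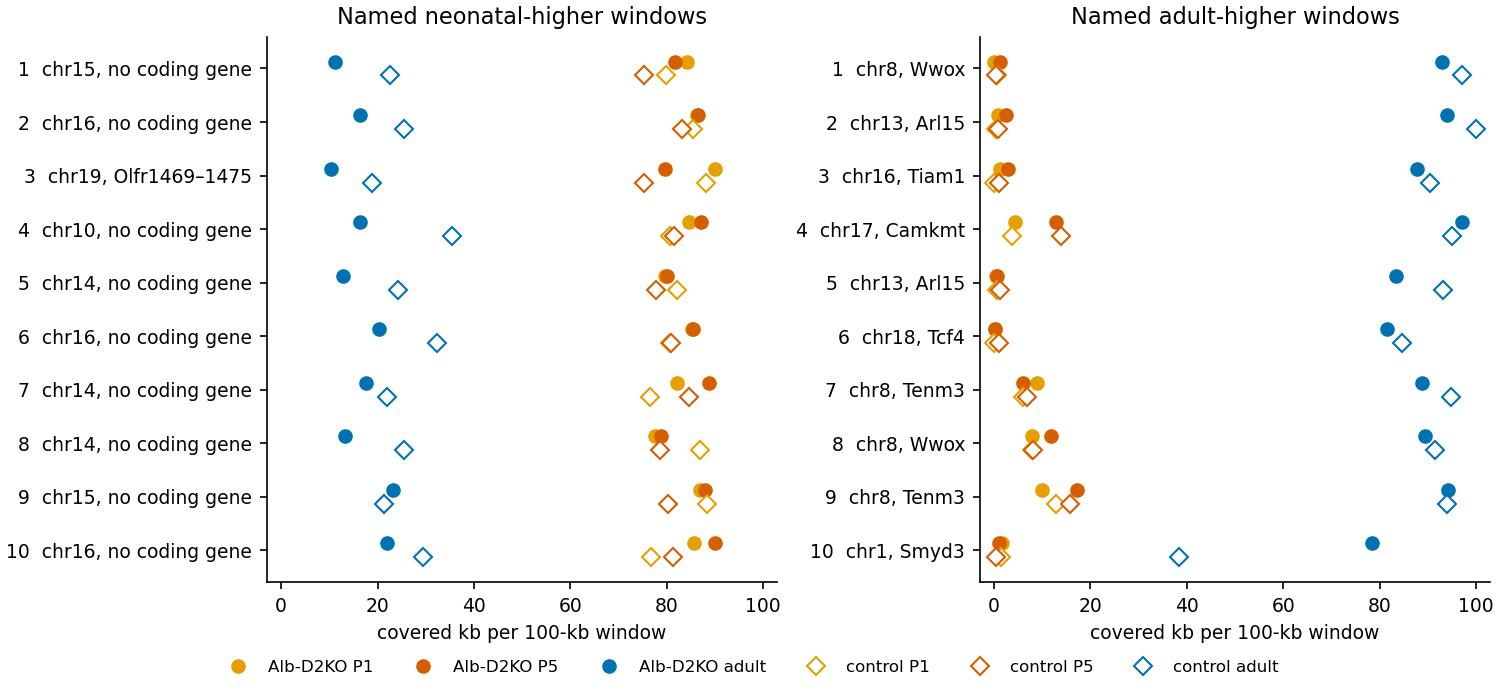
Covered length in kb of the 20 named windows in each of the 3 Alb-D2KO lists and 3 control lists. In the neonatal direction P1 and P5 lie between 77.5 and 90.1 kb in Alb-D2KO, and in the adult direction the adult value lies between 78.5 and 97.1 kb.

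Runs of neighbouring windows, looked up after the window calls were seen, gave the extent of the neonatal regions. The longest was chr14:87700001-97500000, with 70.6% of bases covered at P1 and 70.8% at P5 against 24.2% in the adult. Its coding genes include Klhl1, Pcdh20 and Pcdh9. The next was chr15:16400001-25000000, with 70.1%, 67.7% and 26.0%, which holds the cadherin genes Cdh9, Cdh10, Cdh12 and Cdh18. Cadherins and protocadherins are cell adhesion proteins, many of them of neurons. On chromosome 1 a run of 80 windows, chr1:107900001-115900000, held Cdh7, Cdh19 and Cntnap5a and had 75.02%, 76.6% and 39.8%. On chromosome 14 a run of the same length, chr14:106500001-114500000, held Slitrk1, Slitrk5 and Slitrk6, genes of neuronal membrane proteins, and had 77.8%, 77.6% and 28.95%. These are gene-poor stretches with few coding genes for many megabases.

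Per gene, the peaks that the deposited annotation assigns to a gene name were summed, and a gene was counted with a gap of at least 1 kb under the same rule. Of 21852 genes with a peak in an Alb-D2KO list, 2901 (13.3%) were higher in the neonate and 4073 (18.6%) in the adult. The median difference over all genes was 0.191 kb towards the neonate. Intergenic peaks carry no gene name and were left out of this count. In control 42.0% of the neonatal-higher and 52.7% of the adult-higher genes were counted on the same side, against 12.6% and 19.8% of all genes with a control peak. Counted on the opposite side in control were 120 of the 2901 and 98 of the 4073.

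The named genes higher in the neonate were all very long genes of membrane proteins, among them cadherins and protocadherins. Named genes of both directions were ranked by their gap in kb, which favours long genes, so their length followed from the rule. Lrp1b, a large receptor of the LDL receptor family (chr2:40595246-42653624), had 1318 kb at P1 and 1370 kb at P5 against 541 kb in the adult, and 64.9%, 66.5% and 26.5% of its body lay in peaks. Cdh12, a cadherin (chr15:20449265-21589533), was covered over 70.8%, 70.0% and 21.5% of its body. In Csmd3, a transmembrane protein with CUB and sushi domains, the shares were 59.6%, 58.3% and 17.5%. In each of them the adult share of the body was below both neonatal shares, in Alb-D2KO and in control. The others were Lrrc4c, Sgcz, Cadm2, Pcdh15, Cdh18 and Pcdh9. Flanks moved with most of them: the 100 kb before the start of Cdh12 was covered over 63.5%, 62.7% and 13.5%.

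Among the named genes higher in the adult, Wwox stood first. It encodes an oxidoreductase with WW domains and spans 913.1 kb (chr8:114439655-115352708), and its peaks summed to 15.1 kb at P1 and 32.3 kb at P5 against 515.1 kb in the adult, with 542.1 kb in the control adult. The island did not fill the gene evenly. In the first 100 kb from the start 0.197%, 0.346% and 53.1% of bases lay in peaks, between 100 kb and 340 kb 0.149%, 0.793% and 0.909%, and between 340 kb and 910 kb 2.55%, 6.24% and 80.4%. These limits were read from the profile. The 100 kb past the end of the gene had 14.9% in the adult, against the 80.4% of the segment from 340 kb.

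Arl15, which encodes a small GTPase of the ARF family (chr13:113794505-114157461), had 2.44 kb at P1 and 7.34 kb at P5 against 237.1 kb in the adult. Between 20 kb and 260 kb from its start, a range read from the profile, peaks covered 1.02%, 2.97% and 92.0% in Alb-D2KO and 98.3% in the control adult. Camkmt, which encodes a calmodulin methyltransferase, had 7.03 kb, 25.3 kb and 228.0 kb. Tiam1, an exchange factor for the GTPase Rac, had 4.90 kb, 7.43 kb and 207.5 kb. The 100 kb before the start of Camkmt, Tiam1 and Smyd3 had 0% in the adult, while the same stretch had 24.1% at Arl15 and 14.8% at Wwox. Smyd3, named for its SET and MYND domains, had 9.22 kb, 15.8 kb and 179.3 kb. Tenm3, a teneurin of cell adhesion, had 49.4 kb, 55.3 kb and 293.0 kb, and Fhit, a nucleotide hydrolase in a fragile site, had 179.2 kb, 239.9 kb and 476.7 kb. The P5 value was above the P1 value in each of these genes and below the adult value. Grip1, a scaffold protein with PDZ domains, had the same order, with 37.8 kb, 83.9 kb and 227.8 kb.

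**Figure D4:**
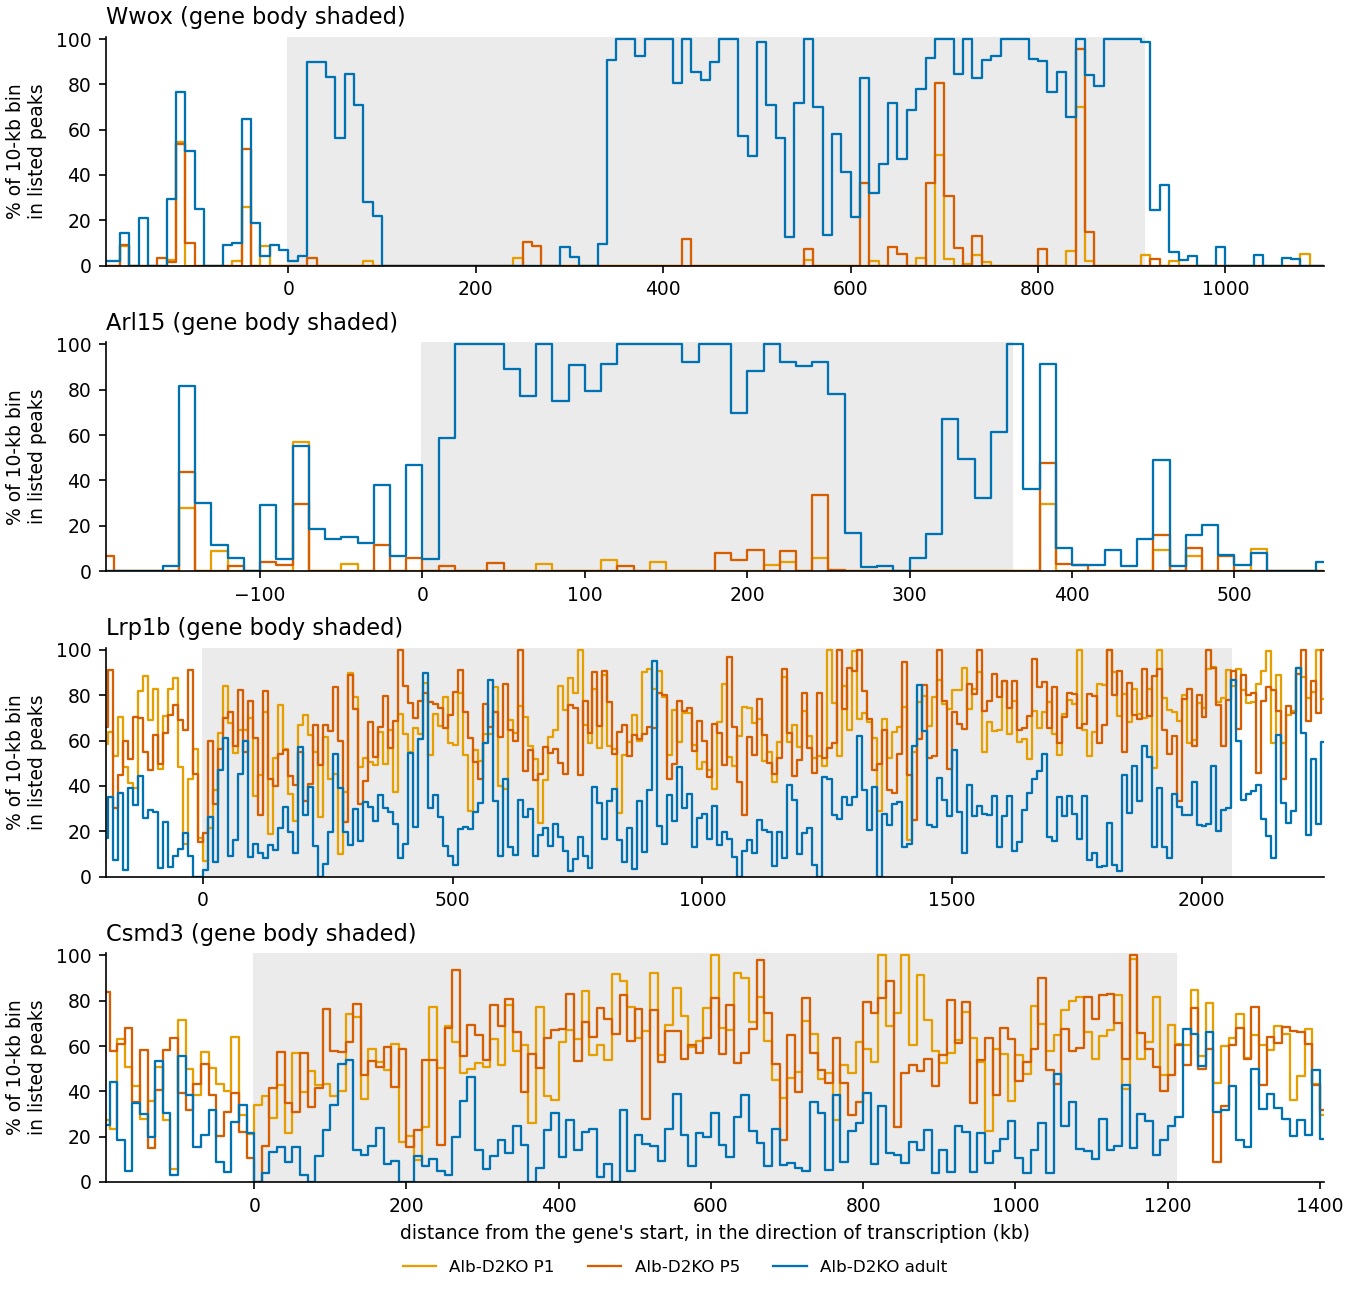
Percent of each 10-kb bin inside H3K9me3 peaks along Wwox, Arl15, Lrp1b and Csmd3 and their flanks in the 3 Alb-D2KO lists, by distance in kb from the gene start, with the gene body shaded. Adult coverage of Wwox stands at 80.4% between 340 and 910 kb from the start and at 0.909% between 100 and 340 kb, while P1 and P5 stay at or below 6.24% on average there, and in Lrp1b the neonatal lines lie mostly above the adult line.

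Wide adult islands over the bodies of long genes were few. Among 540 coding genes of at least 300 kb, 28 had an adult share of their body above both neonatal shares by at least 10 percentage points and 89 had the reverse. A step of at least 30 points was met by 8 and 28 genes. The 8 were Arl15, Tiam1, Camkmt, Wwox, Tcf4, Tenm3, Grip1 and Slc39a11. Slc39a11, a zinc transporter that was named after its values were seen, had 0.643% at P1 and 1.54% at P5 against 32.6% in the adult. Of all 20779 coding genes, 818 were higher in the adult by at least 10 points and 1138 in the neonate. At 30 points the counts were 209 and 706. The body shares of all coding genes were 9.22%, 10.1% and 8.45%, and 6.80%, 6.69% and 4.69% of their starts lay inside a peak.

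The count of Vmn2r-ps18 rests on how a single peak was assigned. This gene is a vomeronasal receptor pseudogene of 0.38 kb and had 61.5 kb at P1 and 7.85 kb at P5 against 303.7 kb in the adult. Its control values were 8.00 kb, 155.9 kb and 61.5 kb. The pseudogene itself lay wholly inside peaks in every list, and its flanks were covered over 93.4% or more in each Alb-D2KO list, so the values show where a long island was cut and named.

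Gene families that H3K9me3 is known to mark did not move together. Zinc finger genes (Zfp), many of which encode DNA-binding repressors with a KRAB domain, were higher in the adult: of 272 with a peak 117 were higher in the adult and 26 in the neonate, against backgrounds of 18.6% and 13.3%. Their bodies were covered over 23.4% at P1 and 24.9% at P5 against 27.9% in the adult. With peaks of −log10 p above 2 the body shares were 13.6%, 14.9% and 21.8%, in the same order. In 28 windows with at least 3 Zfp genes, a grouping added after the data were seen, 18 were higher in the adult and 0 in the neonate. Over all windows the shares were 7.82% and 21.8%. The medians of the 28 windows were 14.9 kb, 19.5 kb and 37.6 kb. The cluster at chr13:67100001-67900000, which also holds Rsl1 and Rslcan18, regulators of sex-limited liver genes, went from 34.4% and 37.8% to 63.8%, and in control from 33.5% and 37.8% to 61.7%. For single genes the sum by name can rest on which peaks carry the name. Zfp985, a gene of 31.9 kb, had 144.1 kb, 137.9 kb and 0 kb by name, while 100% of its body lay in peaks in each of the 3 Alb-D2KO lists. Zfp97 had 55.7 kb, 56.9 kb and 112.6 kb by name, and its body shares were 96.3%, 99.4% and 99.6%.

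Olfactory and vomeronasal type 2 receptor genes went the other way with all peaks. Olfr genes, the odorant receptors of the nose, were covered over 44.0%, 43.1% and 23.6% of their bodies, and of 1258 with a peak 361 were higher in the neonate and 102 in the adult, against 13.3% and 18.6% of all genes. The difference was one of weak peaks, since shares with −log10 p above 2 were 3.41%, 2.51% and 3.08%. In windows with at least 3 Olfr genes, 139 of 251 were higher in the neonate with all peaks, against 21.8% of all windows, and 1 with the strong peaks, where 27 were higher in the adult. Olfr57 was an exception, with 3.03 kb, 3.85 kb and 67.5 kb. Vmn2r genes had 74.2%, 74.3% and 50.2%, and kept their direction with strong peaks, at 32.8%, 26.1% and 15.4%. Of 227, 92 were higher in the neonate and 16 in the adult, against the same 13.3% and 18.6%. Vmn1r genes, the type 1 receptors, had body shares of 50.3%, 47.2% and 38.7%, but by gene name 36 of 328 were higher in the neonate and 61 in the adult, and in control 74 and 39. That count therefore did not hold between genotypes.

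**Figure D5:**
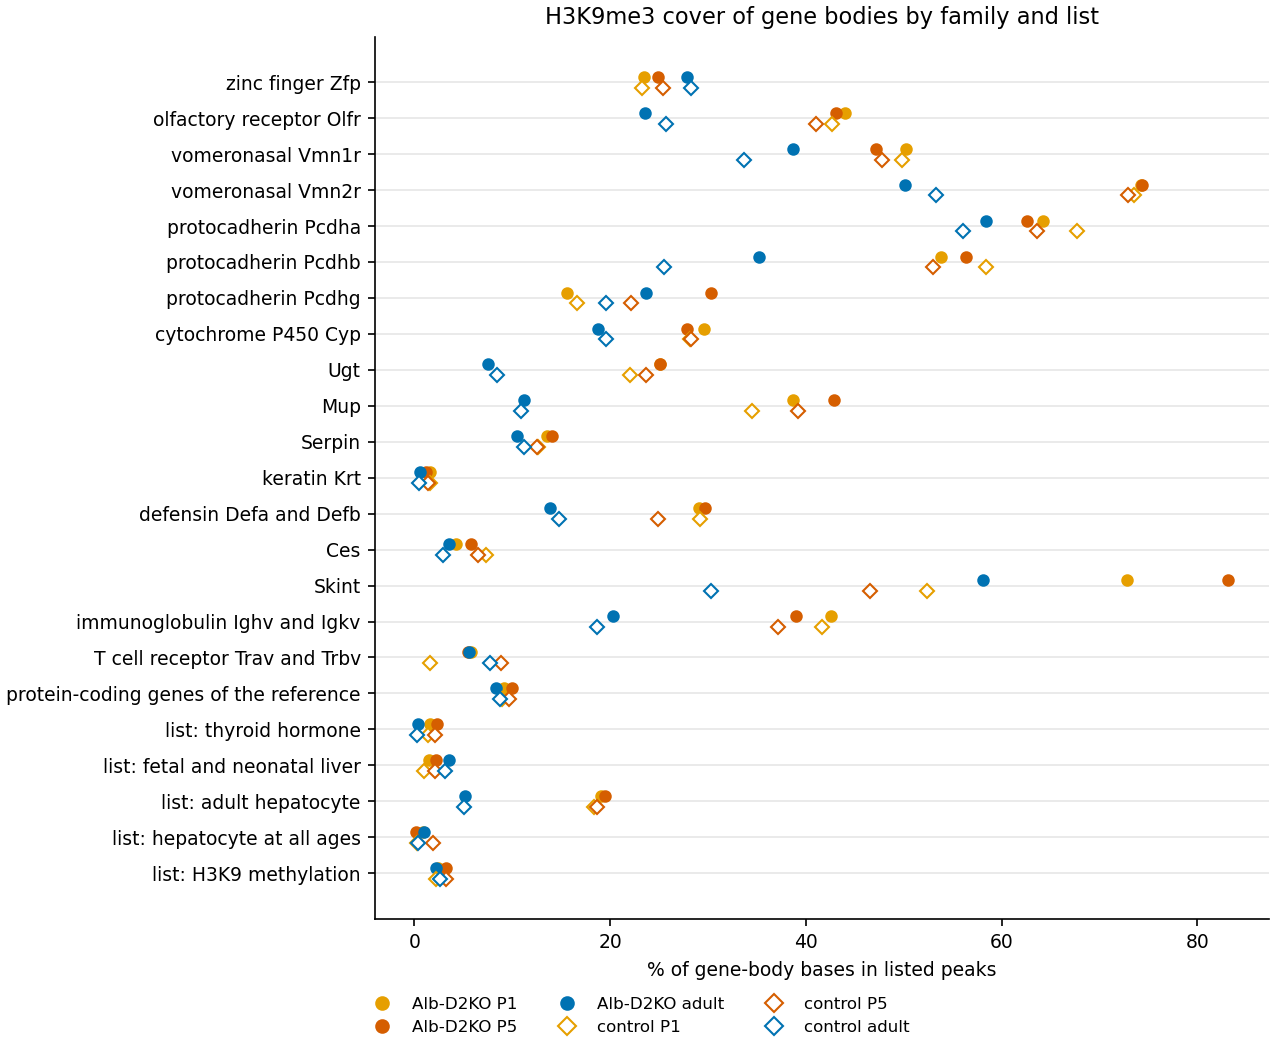
Percent of gene-body bases inside H3K9me3 peaks for gene families and gene lists, with filled points for the 3 Alb-D2KO lists and open diamonds for the 3 control lists. Zfp bodies are highest in the adult, 27.9%, and Olfr, Vmn2r, Mup and Ugt bodies are higher at P1 and P5 than in the adult.

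Immunoglobulin variable genes, which B cells rearrange, had 42.5%, 39.0% and 20.3% of their bodies in peaks, and 42 of 55 windows with at least 3 of them were higher in the neonate, against 21.8% of all windows. By gene name 52 of 312 were higher in the neonate and 16 in the adult, against 13.3% and 18.6% of all genes. Defensin genes, which encode antimicrobial peptides, had 29.1%, 29.7% and 13.8%, and 23 of 71 were higher in the neonate, against the same 13.3%. With −log10 p above 2 the shares were 1.03%, 1.47% and 2.03% for immunoglobulin genes and 0.392%, 0.137% and 2.57% for defensin genes. The adult share was then the highest in both families. In control these shares were 3.16%, 1.52% and 1.78%, and 2.78%, 3.66% and 2.09%. Skint genes, which encode membrane proteins of epithelial cells, had 72.8%, 83.2% and 58.1%, with 7 of 11 higher in the neonate and 0 in the adult, but 4 and 2 after scaling to the adult total. Tdpoz genes had 6 of 9 higher in the neonate, 3 after scaling, and 1 in control. Tdpoz3 had 33.5 kb, 26.6 kb and 0.88 kb in Alb-D2KO and 2.81 kb, 0.918 kb and 0.90 kb in control, with control values that were low at each age. Protocadherins of the Pcdhb cluster had 53.8%, 56.4% and 35.2%, with 4 of 22 higher in the neonate and 1 in the adult. In the Pcdha and Pcdhg clusters the counts were 1 and 1 of 12, and 1 and 2 of 18. T cell receptor genes had 4 and 6 of 55. Carboxylesterase genes (Ces) had 1 gene each way of 10, Serpin genes 7 and 3 of 39, and keratin genes 5 and 1 of 29. All gene counts in this paragraph stand against the same 13.3% and 18.6% of all genes. Hox genes had no peak assigned to any of 45, and histone genes none to any of 70. Predicted genes (Gm) had 1352 of 10738 higher in the neonate and 1902 in the adult, close to the background shares.

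Families with a role in liver were read next. Mup genes, which encode the major urinary proteins secreted by adult liver, had 38.6% at P1 and 42.8% at P5 against 11.2% in the adult. By gene name 16 of 47 were higher in the neonate and 1 in the adult, against 13.3% and 18.6% of all genes. All 6 windows with at least 3 Mup genes were higher in the neonate, against 21.8% of all windows, with medians of 53.9 kb, 51.3 kb and 13.1 kb. With strong peaks the body shares were 1.75%, 4.89% and 5.09%, so the neonatal excess over the genes themselves was not kept. Over the 6 windows the medians with strong peaks were 9.53 kb, 12.6 kb and 1.58 kb, and 12.1 kb, 15.8 kb and 0.472 kb in control. None of these windows met the 10-kb rule at that limit in Alb-D2KO. The gene counted for the adult was Mup21, with 4.76 kb, 15.7 kb and 71.9 kb by name, while its short body was covered over 72.3%, 100% and 100%. Ugt genes, which encode glucuronosyltransferases, had 25.1%, 25.1% and 7.54%. By gene name 10 of 17 were higher in the neonate and 1 in the adult, against the same shares of all genes. Cytochrome P450 genes (Cyp) were split, 24 and 19 of 88, against backgrounds of 13.3% and 18.6%. Of 9 windows with at least 3 Cyp genes 0 were higher in the neonate and 4 in the adult, against 21.8% and 7.82% of all windows. Their body shares were 29.5%, 27.9% and 18.8% with all peaks and 3.52%, 3.63% and 9.01% with strong peaks. Cyp2c67 had 82.9 kb, 58.1 kb and 8.20 kb, and Cyp2j8 had 37.9 kb, 36.4 kb and 48.5 kb.

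Genes that hepatocytes turn on after birth were read from a list of 25. With peaks of any strength 12 had a peak, 6 were higher in the neonate and 0 in the adult, against 13.3% and 18.6% of all genes, and the bodies of the list were covered over 19.1% at P1 and 19.5% at P5 against 5.12% in the adult. The control lists gave 18.4%, 18.7% and 5.03%. Slco1a1, an organic anion transporter, had 18.03 kb at P1 and 14.6 kb at P5 against 0 kb in the adult, and was the only one of the 6 that was also on that side in the strongest 50 Mb. Cyp3a11, a major drug-metabolising P450, had 26.9 kb, 16.7 kb and 1.25 kb. Cyp2c29, of the same superfamily, had 45.7 kb, 43.9 kb and 10.5 kb. The adult value was the lowest in each. C6, a complement component, had 20.1 kb, 26.0 kb and 11.3 kb, Cps1, of the urea cycle, had 5.95 kb, 5.59 kb and 0.425 kb, and Ugt2b1 had 4.12 kb, 3.31 kb and 0.568 kb. In control 5 of the 25 were higher in the neonate and 0 in the adult. With −log10 p above 2 none of the 25 was higher in the neonate and 2 were higher in the adult, Cyp2c29 with 0 kb, 0 kb and 2.67 kb and C6 with 0 kb, 0 kb and 2.92 kb. The neonatal cover of the 6 genes was thus mostly by weak peaks. Strong peaks covered 2.34 kb at P1 and 0.247 kb at P5 in Slco1a1, and 1.59 kb at P1 and 0 kb at P5 in Cps1. In the adult they covered 0 kb of both. Cyp7a1, Cyp2e1, Tat, Pck1 and Glul were among the 13 with no peak in an Alb-D2KO list.

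Promoters of these genes show where the cover reached. Windows of 250 bases before to 50 after the start, from RefSeq on GRCm38, were found for 5 of the 6 genes, and all but that of Cyp3a11 met a neonatal peak in Alb-D2KO. The promoter of C6, at chr15:4726960-4727259 on the plus strand, lay wholly inside peaks at P1 and P5 and in none in the adult, and in none of the control lists. It holds 6 CpG, shown in capitals. The promoter of Slco1a1, at chr6:141946913-141947212 on the minus strand, had 200 bases in peaks at P1 and 300 at P5 against 0 in the adult, and 0, 205 and 0 in control. It holds 0 CpG.
C6 promoter: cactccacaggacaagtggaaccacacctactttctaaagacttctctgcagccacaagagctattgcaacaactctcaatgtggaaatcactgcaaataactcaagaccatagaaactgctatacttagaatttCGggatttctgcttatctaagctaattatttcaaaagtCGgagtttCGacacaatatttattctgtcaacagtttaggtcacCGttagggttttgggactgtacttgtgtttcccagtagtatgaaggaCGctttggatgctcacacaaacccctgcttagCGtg
Slco1a1 promoter: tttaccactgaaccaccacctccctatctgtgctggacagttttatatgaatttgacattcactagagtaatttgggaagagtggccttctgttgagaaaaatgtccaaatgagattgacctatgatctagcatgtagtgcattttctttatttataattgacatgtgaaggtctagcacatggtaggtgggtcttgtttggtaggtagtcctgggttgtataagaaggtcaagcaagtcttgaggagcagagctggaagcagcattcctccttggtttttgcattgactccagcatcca
The promoter of Cyp3a11 had no base in peaks in Alb-D2KO and 300, 300 and 0 in control, although its gene body was covered at both neonatal ages in both genotypes. Peak edges within a gene thus differed between the genotypes.

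Sex chromosomes, left out of the counts, are given because Mup genes and Slco1a1 are known to differ by sex in adult liver. Peaks on X covered 40.5 Mb at P1 and 53.2 Mb at P5 against 10.2 Mb in the adult of Alb-D2KO, and on Y 12.7 Mb, 1.89 Mb and 5.595 Mb. In control X had 45.7 Mb, 54.1 Mb and 9.85 Mb. A difference in sex between the pools and the adult animal was not tested as a part of the values above.

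The thyroid hormone list, which the deletion bears on, was little covered. Dio2 had 0 kb in all 3 Alb-D2KO lists and 0.638 kb in control P1. Peaks do not read the deletion itself, so this is no check of the genotype. Of 16 genes 6 had a peak in an Alb-D2KO list, and 1, Thrb, was counted, in the neonatal direction. Over all genes 13.3% were higher in the neonate and 18.6% in the adult. Thrb encodes the main thyroid hormone receptor of liver and had 17.6 kb at P1 and 23.9 kb at P5 against 2.94 kb in the adult, with 13.3 kb, 18.8 kb and 2.13 kb in control. None of this length came from peaks with −log10 p above 2. In the list of genes that hepatocytes use at all ages, 4 of 14 had a peak and 0 were counted by gene name, against the same shares. By gene body 1, Hnf4a, was higher in the adult, with 1.19%, 0% and 3.97%, and with 0.339%, 6.11% and 1.54% in control. Alb, the albumin gene, had 0.916 kb, 0.209 kb and 0 kb. Peak lists do not measure expression, so the labelled tissue could not be checked by its markers beyond this.

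Genes of fetal and neonatal liver were read from a list of 16, of which 8 had a peak. Of these, 1 was higher in the neonate and 2 in the adult, against 13.3% and 18.6% of all genes. Plagl1, an imprinted zinc finger gene, was higher in the neonate with 3.03 kb, 3.34 kb and 1.57 kb, and was counted no more after scaling. Peg3, another imprinted zinc finger gene, was higher in the adult with 3.13 kb, 3.05 kb and 10.7 kb. Hmga2, a chromatin protein of growing tissue, was also higher in the adult with 0.228 kb, 0.983 kb and 2.59 kb. Of 22 genes that write, bind or remove H3K9 methylation and related marks, 9 had a peak. In this list 1 was higher in the neonate and 2 in the adult, against the same shares of all genes. Kdm4c, an H3K9 demethylase, was higher in the neonate with 8.77 kb, 9.16 kb and 1.60 kb. Atf7ip, a partner of SETDB1, was higher in the adult by name, with 17.1 kb, 16.6 kb and 18.8 kb. Its body shares, 16.3%, 21.1% and 17.8%, did not keep that order, and it was not counted in control. Kdm4d, of the same family as Kdm4c, was higher in the adult with 2.86 kb, 4.10 kb and 5.80 kb.

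Markers of other liver cells were read because the makeup of the liver changes with age. Of 19 erythroid genes 8 had a peak, and 2 were higher in the adult and 0 in the neonate. The bodies of that list were covered over 2.54% at P1 and 5.39% at P5 against 4.26% in the adult. Of 10 markers of other blood cells 3 had a peak and 2 were higher in the adult, with body shares of 0.957%, 0.692% and 8.74%. Kit, the receptor for stem cell factor on blood progenitors and mast cells, made up most of this with 0.401 kb, 0.263 kb and 23.4 kb, and 0.686 kb, 1.21 kb and 23.2 kb in control. Ptprc, the CD45 gene, had 2.52 kb, 2.01 kb and 4.595 kb. Of 5 Kupffer cell markers 4 lie on the autosomes, which alone were counted, and 2 of those had a peak. Both were higher in the adult, Adgre1 (the F4/80 antigen) with 24.7 kb, 31.6 kb and 53.2 kb and Timd4 with 0.189 kb, 0 kb and 1.81 kb. Of 4 endothelial markers 3 had a peak, and Stab2, with 0.542 kb, 2.22 kb and 6.75 kb, and Kdr, with 0 kb, 0 kb and 2.95 kb, were higher in the adult. Stellate cell markers had 3 of 4 with a peak and 0 counted, and cholangiocyte markers had 0 of 4 with a peak. The 8 counted markers were higher in the adult, the direction that was also the more frequent over all genes (18.6% against 13.3%). With −log10 p above 2, 1 of the other blood markers and 1 of the Kupffer markers were still counted, both for the adult. Cell makeup as a part of the window and gene values was not tested.

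The control lists, which share no library with Alb-D2KO, gave the age difference at the same windows. Of the 4724 windows higher in the Alb-D2KO neonate, 85.0% were counted on the same side in control and 0 on the other, against 20.5% of all windows. Of the 1693 higher in the Alb-D2KO adult, 72.1% were counted on the same side and 0 on the other, against 9.16%. Control by itself had 4433 windows higher in the neonate, 20.2% of 21907, and 1984 higher in the adult, 9.06%. These shares depended on the setting. Of the windows counted in the strongest 50 Mb, 42.9% of the neonatal and 53.6% of the adult ones were counted on the same side in control, and with −log10 p above 2 the shares were 38.1% and 60.9%. In both genotypes the neonatal samples were pools of livers and the adult lists name 1 animal, so age and pooling cannot be told apart.

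Ranking by strong peaks put other windows first for the neonate. Ranked after the data were seen by the gap with −log10 p above 2, 4 of the 10 leading neonatal windows lay between chr5:94200001-94300000 and chr5:95200001-95300000 and 5 in clusters of Vmn2r genes on chromosomes 7 and 17. The remaining window, chr7:15200001-15300000, holds no coding gene. Of the windows in Vmn2r clusters, only chr7:9200001-9300000 was also counted with strong peaks in control. At chr7:8400001-8500000 strong peaks covered 87.1 kb, 96.2 kb and 14.4 kb in Alb-D2KO and 74.5 kb, 43.9 kb and 66.2 kb in control. Leading windows outside these clusters, in both directions, were counted on the same side in control. At chr5:94200001-94300000 the strong peaks covered 95.7 kb, 100 kb and 0 kb, while all peaks covered 96.8 kb, 100 kb and 83.0 kb, so that the difference there was one of strength. Stretches found more than once in the genome are many there, and the median over the 139 windows counted with strong peaks was 14%, against 3% over the tested windows. In the adult direction 8 of the 10 leading windows lay in Wwox, Arl15, Camkmt, Tenm3 and Tcf4. Outside these genes, chr2:76700001-76800000 lies in Ttn, the titin gene, and had 0 kb, 0.413 kb and 85.7 kb in strong peaks and 26.1 kb, 42.7 kb and 91.3 kb in all peaks. The other was chr15:32800001-32900000, with 1.47 kb, 1.94 kb and 82.03 kb in strong peaks.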

How the data were processed

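H3K9me3 libraries and inputs of mouse liver (12 samples) were grouped by the genotype, developmental stage and antibody in the labels. Per the labels and the methods, the authors aligned reads to mm10 with BWA in Partek Flow, called broad peaks with MACS2 at a p-value limit of 0.05 over the matched input and annotated them with GENCODE. Each deposited list gives, per peak, the −log10 of its p-value and a fold enrichment ratio over input, as the authors' peak caller wrote them. Depth is unknown, since lists hold no read counts. The deposited lists of Alb-D2KO over control hold the authors' own comparison and were not used. 0 columns were left unmapped.

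Covered bases were summed on the 19 autosomes per full 100-kb window and per gene name. A window or gene was counted where P1 and P5 both lay on the same side of the adult by at least 10 kb or 1 kb and by more than |P1 − P5|. Named windows and genes were the 10 per direction with the widest gaps. They were taken among those that kept their side, by any margin, after scaling to the adult total and in the strongest 50 Mb of each list. Members of the gene lists that were counted, Dio2 and Alb were also named, and families by at most 2 members a direction. A named gene and a pair of sequences are not reported here. Members and lists were chosen with earlier results of these data known. With 1 list per group no test was run. Wilson 95% intervals were computed for shares of peaks. The annotation used for gene bodies was GENCODE of GRCm38, the same build, and positions are 1-based and leave out the last listed base. Alternatives were limits on −log10 p, the 10000 strongest peaks, scaling, equal length, other windows and gaps, gene bodies and each neonatal list alone. Family windows, windows ranked by strong peaks, the 40-kb gap group and profile ranges were added after the data were seen. Counting was checked on simulated data. Python 3.11.15, numpy 2.4.6, pandas 2.3.3, scipy 1.17.1 and matplotlib 3.10.9 were used.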

Additional observations from a re-analysis of the deposited data

Results flagged for a closer look

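Pcdha9, a clustered protocadherin gene, was among 98 genes counted by name for the adult in Alb-D2KO and for the neonate in control. The reverse was counted for 120 genes. In Alb-D2KO the peaks of Pcdha9 covered 2.35 kb at P1 and 1.21 kb at P5 against 5.61 kb in the adult, and in control 4.66 kb, 3.34 kb and 1.38 kb. By gene body both genotypes lay on the same side, with 60.9%, 62.2% and 53.6% covered in Alb-D2KO and 66.1%, 61.1% and 51.2% in control, so the opposite sides are in the peaks that carry the gene name. This difference was not tested, since each genotype and age had 1 list.

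Peaks on the Y chromosome, which entered no comparison, covered 12.7 Mb in Alb-D2KO P1, with 1.89 Mb at P5 and with 5.595 Mb in adult liver. Control had 4.49 Mb, 1.41 Mb and 6.10 Mb, so the Alb-D2KO P1 list was the highest of the 6.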

How the results depend on the processing

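The ratio of neonatal (mean of P1 and P5) to adult covered length was 1.27 with all peaks. It was below 1 with −log10 p above 2 (0.557), above 3 (0.613) and with the 10000 strongest peaks (0.946). The cause was not tested. The ratio of median widths was 1.28 with all peaks and 1.33 with the 10000 strongest. By section it fell below 1 in 3′ UTR exons with −log10 p above 2 (0.955), above 3 (0.840) and with the 10000 strongest peaks (0.961). At TSS it did so above 3 (0.663) and with the 10000 strongest (0.778), and at transcript ends (TTS) in the same settings (0.591 and 0.782).

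Windows higher in the neonate numbered 139 with −log10 p above 2, 14 above 3, 126 with the 10000 strongest peaks and 219 with 50 Mb per list. Windows higher in the adult numbered 99 above 3, 469 with the 10000 strongest, 593 with 50 Mb per list, 2822 after scaling and 401 with a gap of 20 kb. In windows of 1 Mb the counts were 484 and 57, and by number of peaks 1361 and 3764. Genes numbered 272 and 2640 with −log10 p above 2, 37 and 172 above 3, and 267 and 975 with the 10000 strongest peaks. Without P1 or without P5, neonatal-higher windows numbered 5350 and 5169, adult-higher windows 1899 and 2689, neonatal-higher genes 7097 and 6467, and adult-higher genes 5508 and 6130, since a single neonatal list meets the rule more easily. The adult hepatocyte list went from 6 and 0 genes to 0 and 2 with −log10 p above 2. The share of neonatal-higher windows also counted in control was 80.8% after scaling and 38.1% with −log10 p above 2, and for adult-higher windows it was 60.9% at that limit. No paired analysis was possible because each group has 1 list.

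Unknown read depth and the lack of replicate lists limit every value, and most counts in the neonatal direction need peaks with −log10 p below 2.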
